A study of Arabidopsis thaliana with 2 samples.

Results

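Glycosyltransferases of the UDP-sugar family (UGT) and glutathione transferases (GST) are the enzymes that attach a sugar or glutathione to small molecules. Their transcripts were described here in axillary buds of 2 auxin-resistant Arabidopsis thaliana lines, axr3-1 and axr1-12. The members were all probe sets assigned to exactly 1 gene whose symbol has the form UGT plus a family number, letter and gene number, or GST of class U, F, T, Z or L plus a number. This gave 61 genes with 1 probe set each, 47 UGT and 14 GST, of the 22746 probe sets other than controls and of the 13356 genes that had a probe set of their own. The reference gene table lists 58 symbols of the UGT form and 48 of the GST form, and the genes without a listed probe set of their own are not analysed here. No GST of class T or Z was among the members, so the 14 genes were 11 of the tau class (GSTU), 2 of the phi class (GSTF) and 1 of the lambda class (GSTL).

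The study measured bud RNA of each line on 1 single-colour oligonucleotide array, under a title that contrasts dormant with active axillary meristems. Both lines are in the Col-0 background and carry mutations induced with ethyl methanesulfonate. The axr3-1 allele stabilises AXR3 (IAA17), which represses the transcription of auxin response genes, and axr1-12 is a loss-of-function allele of AXR1, which is needed to activate the ubiquitin-like protein RUB. The buds of both lines were about 2 mm long. The plants of both lines were grown on compost at 21 °C, with 16 h light and 8 h dark, after 3 days in the cold, in soil treated before sowing with Intercept WG, an insecticide. The sources used here do not say how many plants were pooled. With 1 array per line no difference below has a replicate check, a standard error or a p-value, and each one is a difference between 2 RNA samples. In bulk RNA, fewer cells of a type and less RNA per cell cannot be told apart.

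UGT enzymes transfer a sugar, mostly glucose, from a UDP-sugar to hormones, flavonoids, phenylpropanoids, sterols or foreign compounds, which changes their solubility, activity and storage. GST enzymes of the tau and phi classes conjugate glutathione to electrophilic compounds such as herbicides or act as carriers and peroxidases, whereas those of the lambda class carry a cysteine at the active site and act in thiol transfer. In plant detoxification cytochrome P450 enzymes often oxidise a compound first, UGT and GST enzymes conjugate it, and transporters of the vacuolar membrane store the conjugate. Several UGT enzymes inactivate auxin, cytokinin, abscisic acid or salicylate, hormones that act on bud growth or defence.

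The deposited value is a MAS5 signal on a linear scale, which is 1 summary of the matching and mismatched probes of a probe set. Probe sets differ in how strongly they respond, so signals rank neither genes nor classes by transcript number. Both arrays had been scaled to the same mean, 100.0 units after the top and bottom 2% were removed. The 27 control probe sets for bacterial genes that gave no high signal reached 29.4 units at most, and a signal at or below that value is called dim here. All 18 hybridisation spike probe sets were lower on the axr1-12 array, with log2 differences from -0.82 to -0.23 and a median of -0.60. Of the 12 symbols listed as bud and shoot meristem markers, 2 had a probe set listed for 1 gene in the annotation used. LAS, needed to form axillary meristems, gave 69.8 units in axr3-1 and 61.8 in axr1-12, and the stem cell gene CLV3 was dim at 7.29 and 2.74 units.

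Most UGT genes gave dim signals in the buds. Of the 47 UGT genes, 30 were dim on both arrays (63.8%), 6 exceeded the dim controls on 1 array and 11 on both (23.4%). Of the 14 GST genes, 6 were dim on both arrays (42.9%), 2 exceeded the controls on 1 array and 6 on both (42.9%). Among all 13356 genes, 37.8% were dim on both arrays and 54.0% exceeded the controls on both. The 23 cytochrome P450 genes that the annotation lists under a CYP symbol had 65.2% dim on both arrays and 21.7% above the controls on both. These shares describe probe sets on 2 arrays and were not tested.

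**Figure D1:**
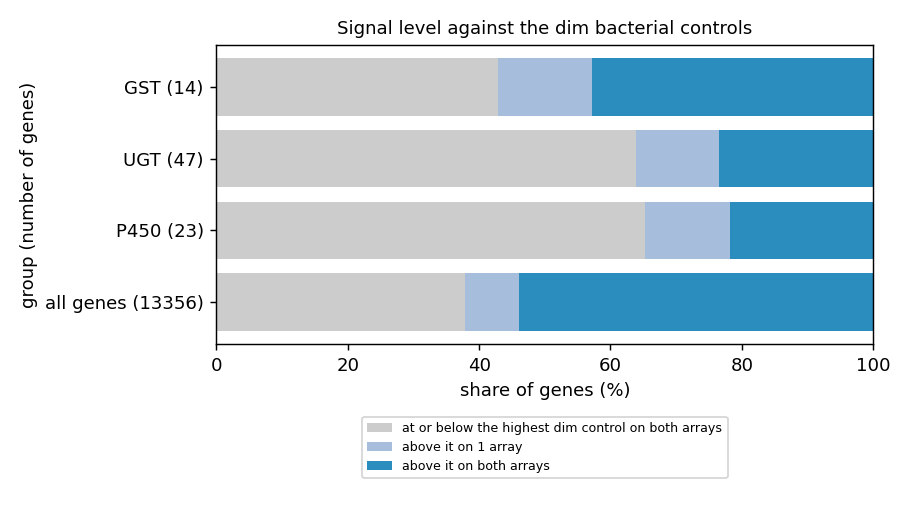
Share of genes (%) by signal level for all genes, cytochrome P450, UGT and GST genes, with the number of genes in parentheses. Grey marks genes at or below the highest dim bacterial control, 29.4 units, on both arrays, which holds for 63.8% of the UGT and 42.9% of the GST genes against 37.8% of all genes.

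The largest differences among the 17 genes that exceeded the dim controls on both arrays were those of 2 glutathione transferases, both lower in axr1-12. GSTU20, a tau-class enzyme known to bind the jasmonate-conjugating enzyme FIN219 in far-red light signalling, gave 212 units in axr3-1 and 64.2 in axr1-12. Its signal was 3.29-fold lower in axr1-12, a log2 difference of -1.72, which ranked 20 of 5975 genes from the lowest. GSTL3, the lambda-class member, gave 311 units in axr3-1 and 131 in axr1-12. It was 2.38-fold lower in axr1-12, a log2 difference of -1.25, at rank 78 from the lowest. Both genes lay clear of the dim controls on both arrays.

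The remaining tau-class genes above the controls on both arrays differed by less than 2-fold. GSTU27 gave 193 units in axr3-1 and 112 in axr1-12, 1.72-fold lower. GSTU18 gave 173 and 131 units, 1.31-fold lower in axr1-12. GSTU16 ran the other way, from 95.2 units in axr3-1 to 133 in axr1-12, 1.40-fold higher. GSTU26 gave 47.0 and 42.2 units, a log2 difference of -0.15.

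As a partial yardstick for these differences, 32 genes had 2 probe sets past the signal filter, and the log2 differences of such a pair disagreed by 0.37 (root mean square). This covers differences among probes and not among plants or hybridisations. Of the 6 GST genes above the controls on both arrays, 4 were lower in axr1-12 by more than this, 1 (GSTU16) was higher by more and 1 (GSTU26) lay within it. Of all 7206 genes above the controls on both arrays, 19.9% were lower and 19% higher by more than this. With a pseudocount of 16 units in place of the floor, GSTU18 came to lie within the yardstick, which left 3 lower and 1 higher. The filter keeps genes whose mean log2 signal lies at or above the median of all probe sets, which corresponds to a geometric mean of 51.8 units. It passed 5 of the 14 GST genes, and GSTU26 lay below it. The 5 had a median log2 difference of -0.78, axr1-12 minus axr3-1, against 0.01 over all 5975 genes past the filter. Of them 2 were at least 2-fold lower in axr1-12, beside 3.05% of all genes past the filter, and 0 were at least 2-fold higher, beside 2.44%. At 1.5-fold the counts were 3 lower and 0 higher, beside 10.7% and 9.09%.

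The GST genes below these levels added little. The phi-class genes GSTF4 and ATGSTF13 exceeded the dim controls on the axr3-1 array only. GSTF4 gave 35.9 units in axr3-1 and 18.9 in axr1-12, and ATGSTF13 39.3 and 26.0 units, so no fold is given for either. The 6 tau-class genes dim on both arrays were GSTU15, GSTU21, GSTU22, GSTU23, GSTU25 and GSTU28, with at most 28.6 units, that of GSTU28 in axr3-1, where it gave 14.5 units in axr1-12. Of these 6 genes 3 lay below 15.4 units, the 25th percentile of both arrays used as the floor, on both arrays.

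**Figure D2:**
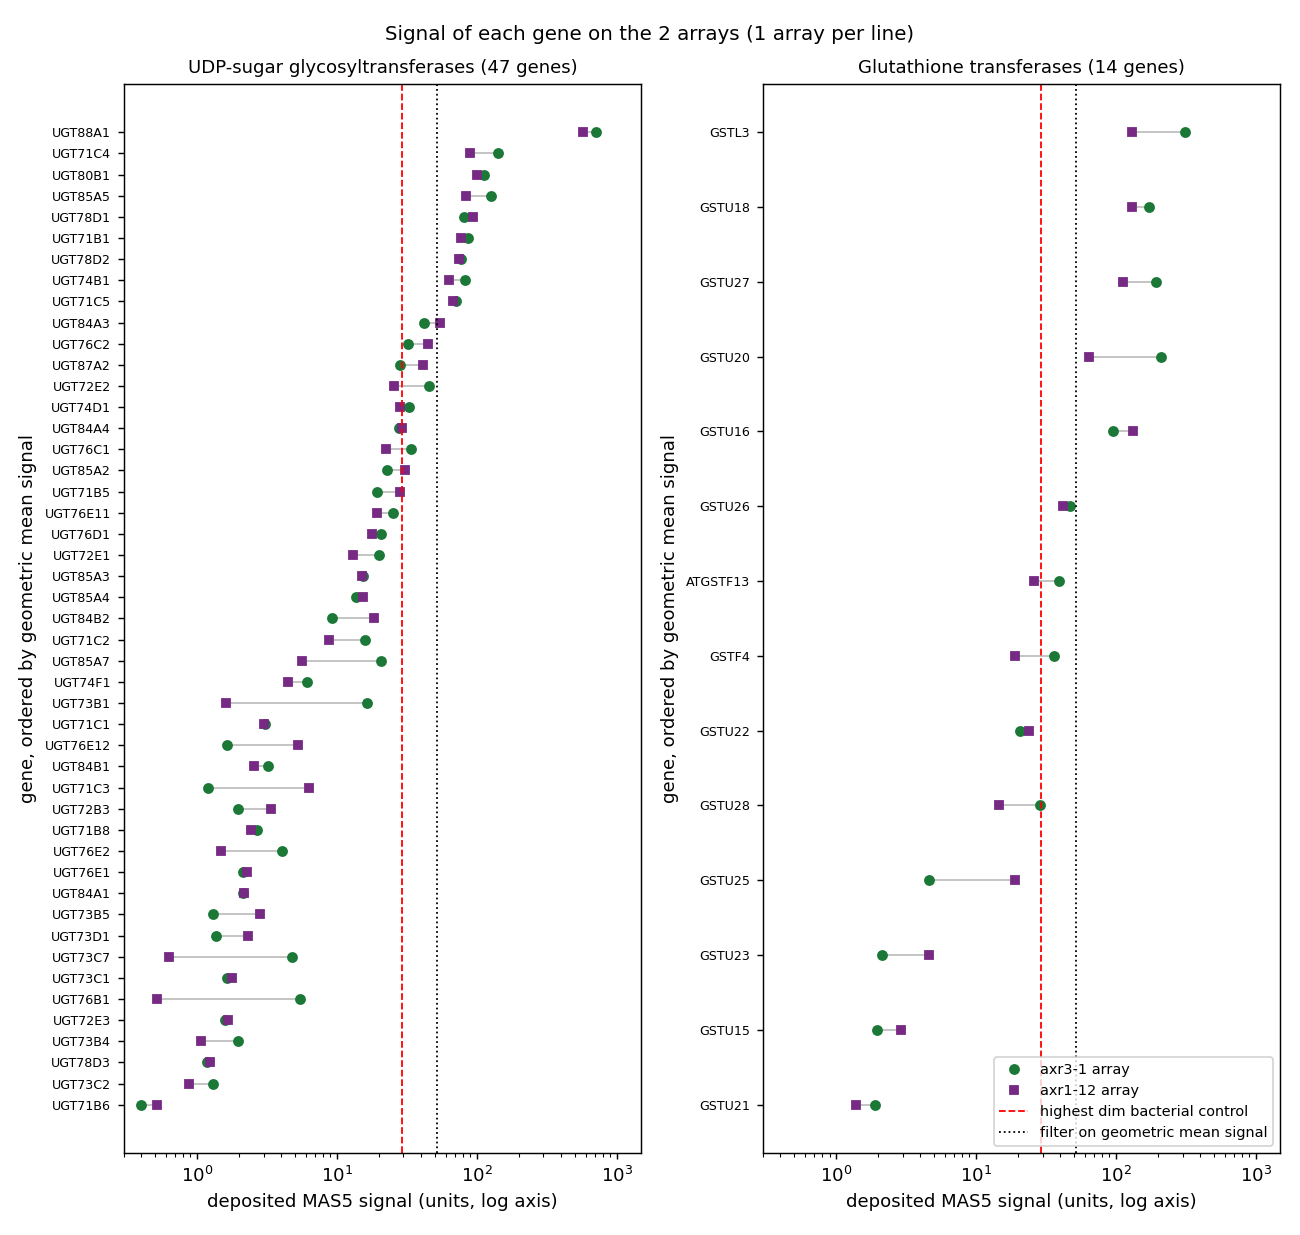
Deposited MAS5 signal (units, log axis) of the 47 UGT genes (left) and 14 GST genes (right) on the axr3-1 array (circles) and the axr1-12 array (squares). The dashed line marks the highest dim bacterial control, 29.4 units, and the dotted line the filter on geometric mean signal, 51.8 units; the wide gaps of GSTU20 and GSTL3 lie to the right of both, those of UGT73C7, UGT76B1 and UGT73B1 to the left.

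The log2 differences of the UGT genes past the filter spanned a narrower range than those of the GST genes. None of the 9 differed by at least 2-fold in either direction, beside the 5.49% of all genes past the filter that did. With only 9 genes, a count of 0 lies near that share and is not read as a result about the class. Their log2 differences ran from -0.67 to 0.22 around a median of -0.17, and 8 of the 9 were lower in axr1-12, beside 49.3% of all genes past the filter. At 1.5-fold, 2 were lower and 0 higher, beside 10.7% and 9.09% of all genes past the filter.

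UGT71C4, which glucosylates flavonols in vitro, gave 142 units in axr3-1 and 89.3 in axr1-12, 1.59-fold lower. UGT85A5 gave 127 and 84.0 units, 1.51-fold lower in axr1-12. These were the 2 UGT genes past 1.5-fold, at ranks 482 and 620 of 5975 from the lowest.

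UGT88A1, also active on flavonols in vitro, had the highest UGT signal, 709 units in axr3-1 and 578 in axr1-12. It was 1.22-fold lower in axr1-12, a log2 difference of -0.29 that lies within the yardstick. UGT71B1 gave 86.5 units in axr3-1 and 77.9 in axr1-12, a log2 difference of -0.15.

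The flavonol enzymes of family 78 showed small differences. UGT78D1, the flavonol 3-O-rhamnosyltransferase, gave 80.9 units in axr3-1 and 93.9 in axr1-12, 1.16-fold higher. UGT78D2, the flavonoid 3-O-glucosyltransferase, gave 77.0 and 74.8 units, a log2 difference of -0.04. UGT78D3, the flavonol arabinosyltransferase, was dim on both arrays at 1.18 and 1.24 units. The differences of UGT78D1 and UGT78D2 lie within the yardstick.

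UGT74B1, which glucosylates thiohydroximates in glucosinolate synthesis, gave 82.7 units in axr3-1 and 63.2 in axr1-12, 1.31-fold lower. UGT80B1, a sterol glucosyltransferase also named TRANSPARENT TESTA 15, gave 113 and 101 units, a log2 difference of -0.17. UGT71C5, which glucosylates abscisic acid, gave 70.7 and 67.4 units, a log2 difference of -0.07. Of these 3 only UGT74B1, at -0.39, lay just outside the yardstick.

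The UGT genes listed for hormone substrates were dim on both arrays in 63.6% of cases, near the 63.8% of all UGT genes and above the 37.8% of all genes. Of 19 such symbols, 11 belonged to the 47 genes. Of these 2 exceeded the dim controls on both arrays, UGT71C5 and UGT76C2, 2 did so on 1 array and 7 were dim on both. UGT76C1 and UGT76C2, the neighbouring genes for cytokinin N-glucosylation, gave low signals, with 1 of the 4 dim, so their directions are not compared. UGT76C2 gave 32.4 units in axr3-1 and 44.7 in axr1-12, 1.38-fold higher, and lay below the filter. UGT76C1 gave 34.0 units in axr3-1 and a dim 22.5 in axr1-12. UGT74D1, which acts on auxin and its oxidised form, gave 33.1 units in axr3-1 and a dim 28.5 in axr1-12. The other 7, dim on both arrays, were UGT84B1 and UGT84B2 for auxins, UGT71B6 and UGT71B8 for abscisic acid, UGT73C1 for zeatin, UGT74F1 for salicylate and UGT76B1 for isoleucic acid and salicylate, all at 18.5 units or less. Neither line's array can therefore show a difference for these 7.

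Of 22 symbols listed for phenylpropanoid or flavonoid substrates, a list that does not hold the genes UGT71C4, UGT71B1 and UGT88A1, 11 were among the 47 and 3 exceeded the dim controls on both arrays. Besides UGT78D1 and UGT78D2 this was UGT84A3, which forms glucose esters of hydroxycinnamates, with 42.3 units in axr3-1 and 54.5 in axr1-12. It was 1.29-fold higher in axr1-12, at 0.37 just inside the yardstick, and lay below the filter. Its neighbour UGT84A4 gave 28.0 and 29.4 units, next to the limit, and UGT84A1, adjacent to UGT84A3, was dim at 2.13 and 2.17 units. UGT72E2, which glucosylates monolignols such as coniferyl alcohol, gave 45.9 units in axr3-1 and a dim 25.6 in axr1-12. UGT72E1 and UGT72E3, with the same kind of substrate, were dim on both arrays.

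Over the 11 UGT genes above the dim controls on both arrays, 8 were lower and 3 higher in axr1-12. By more than the yardstick, 3 were lower (UGT71C4, UGT85A5 and UGT74B1) and 1 higher (UGT76C2), and 7 lay within it, beside 19.9% lower and 19% higher among all genes above the controls on both arrays. UGT76C2 lay below the filter, whereas the yardstick comes from probe sets past the filter. With the pseudocount UGT74B1 and UGT76C2 came to lie within the yardstick, which left 2 lower and 0 higher. Of the 6 UGT genes above the controls on 1 array, 3 exceeded them in axr3-1 only (UGT72E2, UGT74D1 and UGT76C1) and 3 in axr1-12 only (UGT84A4, UGT85A2 and UGT87A2). UGT87A2, known to affect flowering time, gave 28.2 units in axr3-1 and 41.6 in axr1-12. UGT85A2 gave 22.9 and 30.5 units. No fold is given for these 6.

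Families of the UGT genes differed in how many members exceeded the dim controls on both arrays. None of the 7 genes of family 73 did, and their signals ran from 1.31 to 16.3 units in axr3-1 and from 0.636 to 2.82 in axr1-12. Family 76 had 1 of 8, family 71 had 3 of 9, family 72 had 0 of 4, and families 84 and 85 had 1 of 5 each. Of the 30 UGT genes dim on both arrays, 20 lay below the floor on both. A large ratio between 2 dim signals is not read as a difference, as for UGT73B1 with 16.3 and 1.63 units, UGT85A7 with 20.9 and 5.61 units and UGT76B1 with 5.44 and 0.521 units.

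**Figure D3:**
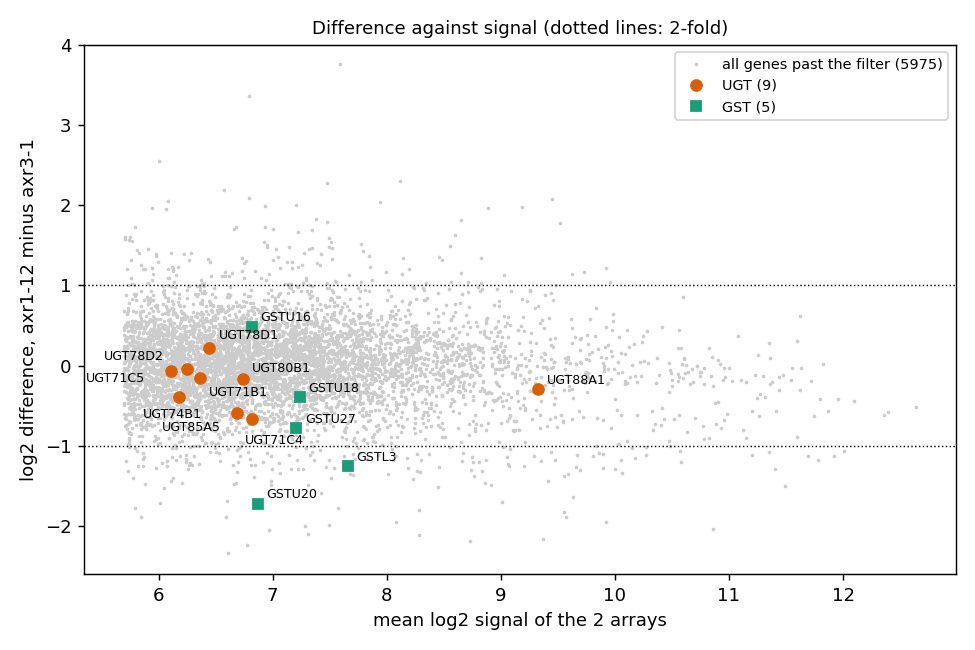
Log2 difference (axr1-12 minus axr3-1) against the mean log2 signal of the 2 arrays for the 5975 genes past the filter (grey), with 9 UGT genes as circles and 5 GST genes as squares. GSTU20 at -1.72 and GSTL3 at -1.25 lie below the lower 2-fold line, and all 9 UGT genes lie between the 2-fold lines.

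Neighbouring genes of a class could differ in whether they exceeded the dim controls. In the reference gene order, 36 of the 61 genes stood in 15 groups of neighbours of the same class with at most 1 other protein-coding gene between them, 13 groups of UGT and 2 of GST genes. In the group GSTU23, GSTU22, GSTU21 and GSTU20 (AT1G78320 to AT1G78370), GSTU20 exceeded the dim controls on both arrays and the other 3 genes were dim on both. GSTU22 gave 20.6 and 23.9 units there, GSTU21 1.91 and 1.38 units and GSTU23 2.15 and 4.65 units. In the group UGT71C5, UGT71C4 and UGT71C3 (AT1G07240 to AT1G07260), UGT71C3 was dim at 1.21 and 6.29 units, whereas UGT71C4 was 1.59-fold and UGT71C5 1.05-fold lower in axr1-12. In the group UGT85A7, UGT85A2, UGT85A5 and UGT85A3, only UGT85A5 exceeded the dim controls on both arrays. All 61 probe sets carry the plain suffix that the manufacturer gives to probes taken as specific for 1 transcript. Cross-hybridisation between close copies was not tested, and the values of genes in such groups are to that extent uncertain.

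**Figure D4:**
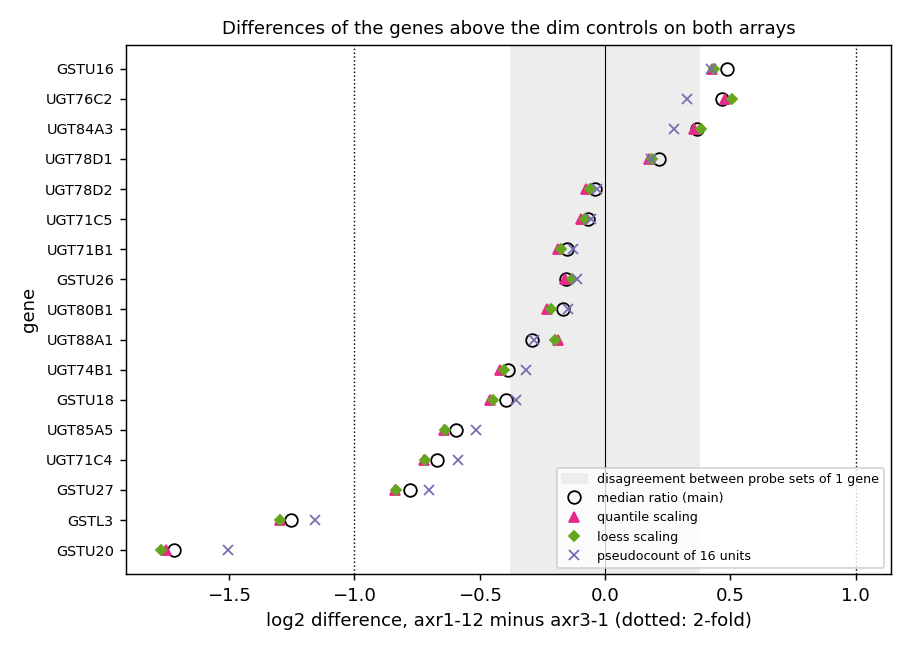
Log2 difference (axr1-12 minus axr3-1) of the 17 UGT and GST genes above the dim controls on both arrays, under the main scaling by the median ratio (open circles), quantile scaling (triangles), loess scaling (diamonds) and a pseudocount of 16 units (crosses). The grey band is the disagreement of 0.37 between probe sets of 1 gene. GSTU20 and GSTL3 lie beyond the lower 2-fold line under each of these settings, none of which scaled the arrays to the spikes.

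Few genes of the connected pathways had a probe set listed for them alone in the annotation used. That annotation leaves 8730 of the 22746 probe sets unlisted, so an absent gene may still be on the array. Of the list for glutathione synthesis and use, 2 of 31 had such a probe set, the glutathione reductase genes. GR1 (AT3G24170) gave 215 units in axr3-1 and 223 in axr1-12, a log2 difference of 0.05, and the gene for the organellar enzyme (AT3G54660) gave 248 and 209 units, a log2 difference of -0.25. Neither differed by more than the yardstick. Of the 19 symbols listed for the response to foreign and electrophilic compounds, 1 had such a probe set. This was the alkenal reductase gene AER, with 181 units in axr3-1 and 158 in axr1-12. None of the 17 listed vacuolar transporters had one in the annotation. Of 31 entries for phenylpropanoid and flavonoid synthesis, 3 had such a probe set and 2 passed the filter. HCT, which leads to lignin precursors, gave 449 units in axr3-1 and 315 in axr1-12, 1.42-fold lower. ALDH2C4, which makes sinapate and ferulate, gave 165 and 185 units, 1.13-fold higher. The third, DFR, the dihydroflavonol reductase of anthocyanin synthesis, had the largest difference of the list, with 81.3 units in axr3-1 and 29.8 in axr1-12, 2.73-fold lower. Its axr1-12 signal lay next to the limit of 29.4 units, and the gene did not pass the filter.

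Among the cytochrome P450 genes listed under a CYP symbol 5 passed the filter, all of the CYP71B subfamily. Their log2 differences ran from -0.37 to 1.04 around a median of -0.20. CYP71B22 gave 132 units in axr3-1 and 270 in axr1-12, 2.05-fold higher, and the other 4 were lower by less than 1.5-fold. The medians of the UGT, GST and P450 genes, -0.17, -0.78 and -0.20, rest on 9, 5 and 5 genes and were not tested against each other.

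Markers of other tissues with a probe set listed for them alone were also sparse. Of 4 leaf photosynthesis markers 1 had such a probe set, LHCB4.1, which encodes a light-harvesting protein of photosystem II. It gave 5706 units in axr3-1 and 2620 in axr1-12, 2.17-fold lower. Of 6 markers of secondary walls 1 had one, IRX10, listed as GUT2, at 105 and 90.1 units. Of 4 root markers 1 had one, PYK10, and it was dim at 26.2 and 23.9 units. Of 4 pollen and anther markers 2 had one, AMS at 46.8 and 66.5 units and MGH3, dim at 2.99 and 2.73 units. No seed marker had one in the annotation. The part of these tissues and of the lower spike signal on the axr1-12 array in the UGT and GST differences was not tested. No setting scaled the arrays to the spikes, whose median of -0.60 is larger in size than the UGT median of -0.17. The lowest spike, at -0.82, also exceeds in size the GST median of -0.78. Whether GSTL3, at -1.25, would stay at least 2-fold lower in axr1-12 under such scaling was not tested, nor was the GST median.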

How the data were processed

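The authors deposited 1 intensity per probe set and array, computed with MAS5 (version not stated) per the submitters' processing notes. Per the labels' protocols, column-purified total RNA was primed with oligo(dT) and transcribed into biotin-labelled cRNA. Lines were taken from the source name. Of 22746 probe sets, leaving out 64 controls, 13513 had 1 gene in the platform's GEO annotation, 503 several and 8730 were not listed. Names and gene order came from the TAIR10.1 table. Log2 differences (numpy 2.4.6, pandas 2.3.3) are axr1-12 minus axr3-1 after division of axr1-12 by the median ratio over all probe sets (log2 -0.002), with signals below 15.4 units raised to that floor. Of the 22746, 11373 passed the filter. Where a gene had several probe sets, the one with the highest mean signal was used. No test is possible with 1 array per line, and the number of arrays limits the precision. Every member could be named, with its own sentence for those at least 1.5-fold different, the highest signals and the known substrates. The members and lists were chosen with earlier results of these data known. The procedure was tested on simulated data with large changes planted in bright probe sets only, which does not bear on smaller differences or dim genes. Promoter and protein sequences were not analysed here. Other settings tried were the scale as deposited, quantile scaling, loess scaling (statsmodels 0.14.6, span 0.3), a pseudocount of 16 units, no floor, other filters and thresholds, plain probe sets and the mean over probe sets.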

Additional observations from a re-analysis of the deposited data

Results flagged for a closer look

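A probe set outside the comparison gave signal above the dim bacterial controls. It is shared by UGT89B1, which glucosylates flavonols and benzoates, and the adjacent gene AT1G73885, so the signal cannot be given to either gene. Its signal was 101.6 units in axr3-1 and 38.7 in axr1-12, 2.62-fold lower.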

How the results depend on the processing

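None of 102 alternative values of the 17 genes above the dim controls on both arrays changed sign or moved by more than the 0.37 yardstick. The settings were the scale as deposited, quantile or loess scaling, a pseudocount, no floor, and a median ratio over probe sets past the filter, added after the data had been seen. No floor could not change these values, since all lie above the floor. The deposited scale and the added median ratio shift all genes by the same small amount. Only quantile scaling, loess scaling and the pseudocount could move genes differently. None of the settings scaled the arrays to the spikes. GSTU20 ranged from -1.77 to -1.50 and GSTL3 from -1.29 to -1.16. With a pseudocount, GSTU18 at -0.36, UGT74B1 at -0.32 and UGT76C2 at 0.33 fell inside the yardstick, and UGT84A3 passed it at 0.38 under loess scaling. Of 74 alternative values of the class medians and counts, 69 moved by less than 0.1 in a median or by at most 1.5 times in a count. Some of these could not move. All 61 members have 1 plain probe set each, so plain probe sets and the mean over probe sets return the main values. No floor also returned them. Without a filter the UGT median was 0 over 47 genes, since 20 lay at the floor on both arrays, and the GST median was -0.27 over 14 genes. With the filter at the 67th percentile the UGT median was -0.44 over 4 genes. At 1.5-fold 2 UGT and 3 GST genes were lower, and at 3-fold 1 GST gene, GSTU20, was lower. Adding genes named by a synonym, also added then, kept both medians within 0.1. No paired analysis was possible because each line has 1 array. Signals near the dim controls limit 44 of the 61 genes.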

Other observations

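The name rule left out 4 genes that carry a UGT name only as a synonym, and they were chosen for naming after their values were seen. UF3GT, also named UGT79B1, which adds xylose to anthocyanins, gave 35.8 units in axr3-1 and a dim 19.3 in axr1-12, so no fold is given. GT72B1, also named UGT72B1, which glucosylates monolignols and chlorinated phenols, gave 65.2 and 34.0 units, 1.92-fold lower in axr1-12 and below the filter. The sterol glucosyltransferase SGT, also named UGT80A2, went the other way, from 104.6 units in axr3-1 to 146 in axr1-12, 1.40-fold higher, whereas its relative UGT80B1 was 1.12-fold lower. AT5G54010, also named UGT79B6, was dim at 10.2 and 11.3 units.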
